A study of Rattus norvegicus with 12 samples.

Results

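Fbxo32, Trim63, Mstn, Foxo1 and Foxo3 belong to the programme by which skeletal muscle loses mass, and their transcripts were followed here in long bone of female Sprague-Dawley rats after ovariectomy (OVX) and blueberry (BB) diets. The genes were chosen by symbol: every probe set to which the platform annotation gives one of these symbols and no other was taken, and a gene is the mean of its probe sets. This gave 5 genes on 9 probe sets, out of 14217 genes and 31042 probe sets. Fbxo32, Trim63 and Mstn had 1 probe set each, and Foxo1 and Foxo3 had 3 each. No measured value enters the rule, though the 5 genes were picked with earlier results of these data known.

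Affymetrix rat genome arrays measured total RNA of whole bone in 4 groups of 3 arrays, and every array held equal amounts of RNA of 2 to 3 rats, from groups of at least 8. Sham rats were sham-operated and ate a casein control diet. OVX rats lost their ovaries on postnatal day (PND) 60 and ate the same diet. LTBB OVX rats had the same surgery and a diet with 10% BB from PND 20 to the end, and STBB OVX rats had it from PND 20 to PND 34 and the control diet from then on. All rats were killed on PND 81. No sham-operated group ate BB, so the diets were compared in OVX rats alone. The labels name the femur and the methods the right tibia as the bone used.

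Fbxo32 (atrogin-1) and Trim63 (MuRF1) encode ubiquitin ligases made mainly in striated muscle, which tag proteins for the proteasome, and both rise in wasting muscle. Mstn encodes myostatin, a secreted ligand of the TGF-beta family that limits muscle growth through activin receptors and Smad proteins. Foxo1 and Foxo3 are transcription factors that switch on both ligase genes when insulin and IGF signalling through Akt does not hold them out of the nucleus, and they act in many other tissues, bone included.

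The deposited log2 values were centred, with the median of any probe set over the 12 arrays at 0. They give differences between arrays, and neither the level of a gene nor whether its probe set was above background can be read from them. The sham arrays stood apart: their values had a standard deviation of 0.781 to 0.824 over all probe sets, against 0.136 to 0.194 in the other 9 arrays. Differences were tested with limma across all 14217 genes, with Benjamini-Hochberg adjustment over all of them and a threshold of 0.05. A limma p-value or interval here rests on 1 estimate of the scatter of pools per gene, shared by the 4 groups and drawn toward that of other genes. The scatter was larger in sham, where the median SD of a gene was 0.127, against 0.079 to 0.088 in the other groups. Comparisons among the OVX groups therefore carry the sham scatter as well.

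Skeletal muscle transcripts form the background against which these genes were read. The muscle structural score is the mean centred log2 value of 44 measured genes of 48 listed for the contractile apparatus. It was 3.05, 3.16 and 3.73 in the sham pools, -1.18, -0.72 and -1.38 in OVX, -0.97, -1.39 and 0.42 in LTBB OVX, and -0.15, 0.48 and 0.38 in STBB OVX. The sham pools lay far above all others, and LTBB OVX pool 3 lay with the STBB OVX pools rather than with its own group. Of the 44 genes 43 fell in OVX against sham, with a median log2 fold change of -5.03 (-2.73 after the arrays were quantile normalized again), where the median of all genes was 0.0047. Myh1, named after its value was seen, did not pass (-0.26, adjusted p = 0.266). In bulk RNA fewer muscle cells and less RNA per muscle cell cannot be told apart.

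Of the 5 genes, Trim63, Foxo3 and Mstn were lower after OVX than after the sham operation and none was higher, in a comparison where 28.6% of all genes were lower and 30.3% higher. The fall was large for Trim63 and small for the other two. Fbxo32 and Foxo1 did not pass.

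**Figure D1:**
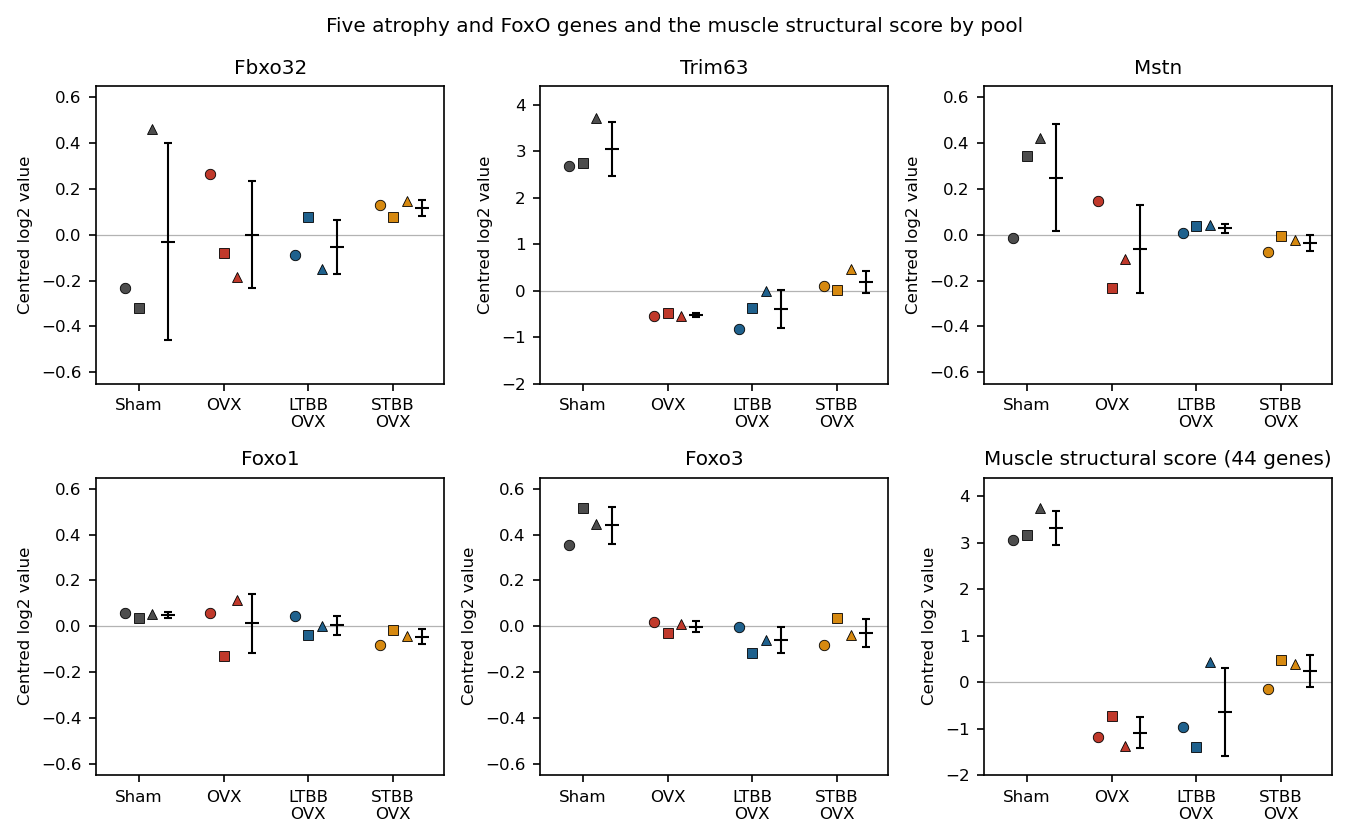
Centred log2 values of Fbxo32, Trim63, Mstn, Foxo1 and Foxo3 and of the muscle structural score in the 4 groups. Pool 1 is drawn as a circle, pool 2 as a square and pool 3 as a triangle, with a bar for the mean ± SD (n = 3); Trim63 and the score share an axis from -2 to 4.4, and the other panels run from -0.65 to 0.65. Trim63 was at 2.67 to 3.71 in sham and no higher than 0.46 elsewhere, as the score was at 3.05 to 3.73 and no higher than 0.48.

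Trim63, the ligase that binds titin and tags thick filament proteins, followed the fall of muscle. It read 2.67, 2.74 and 3.71 in the sham pools and -0.56, -0.48 and -0.54 in the OVX pools. The LTBB OVX pools read -0.82, -0.38 and -0.0044, and the STBB OVX pools 0.095, 0.0044 and 0.46. Every sham pool lay above every pool of OVX rats, by more than 2 log2 units, and the 3 OVX pools lay close together. In OVX against sham the log2 fold change was -3.57 (SE 0.25, 95% confidence interval -4.12 to -3.02, limma adjusted p = 6.1e-08), which is 11.9-fold lower. An exact two-sided permutation of the pools gave p = 0.1, the smallest that 3 against 3 allow. Against sham it was also lower in LTBB OVX, by -3.44 (SE 0.25, adjusted p = 8.5e-08), and in STBB OVX, by -2.85 (SE 0.25, adjusted p = 5.13e-07). Only 95 of 14217 genes (0.668%) were lower still in OVX against sham, but among them were 29 of the 44 muscle structural genes. When the arrays were quantile normalized again, which gives every array the same spread of values, the difference was -2.06 (adjusted p = 0.00145) in OVX and -0.60 (adjusted p = 0.209) in STBB OVX, where the call was lost.

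The promoter of Trim63 is shown because Trim63 had by far the largest difference of the 5 genes and FoxO proteins are known to act on it. The sequence is RefSeq's for the assembly GRCr8, chr5:151816986-151817285 on the + strand, 250 bases before and 50 after a transcript start at 151817236, which lies inside the gene as annotated (151817209 to 151831026). Capitals mark matches to 3 motifs.

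Trim63 promoter: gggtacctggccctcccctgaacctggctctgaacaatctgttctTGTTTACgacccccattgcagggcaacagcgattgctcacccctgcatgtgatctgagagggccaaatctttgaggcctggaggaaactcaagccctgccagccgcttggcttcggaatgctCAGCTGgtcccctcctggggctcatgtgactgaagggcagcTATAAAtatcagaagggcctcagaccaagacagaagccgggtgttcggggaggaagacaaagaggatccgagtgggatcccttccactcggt

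The FoxO core TGTTTAC was found from -205 to -199, counted back from that start, the E-box CAGCTG of the MyoD type from -83 to -78, and the TATA letters TATAAA from -42 to -37. Searched on both strands, these letters occur in 3.78%, 15.059% and 14.222% of 33469 rat promoters of the same length, and the matches do not overlap each other. The window holds 57.0% G and C, against a median of 51.7%. The other member with a promoter in the same collection, Foxo1 (chr2:138462724-138463023, + strand, 75.0% G and C), had none of these letters in its window. A match is a run of letters and not a measured binding site.

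Fbxo32, the F-box subunit of a cullin ligase that acts on MyoD and other muscle proteins, did not follow Trim63. Its single probe set read -0.23, -0.32 and 0.46 in the sham pools, 0.26, -0.079 and -0.18 in OVX, -0.089, 0.079 and -0.15 in LTBB OVX, and 0.13, 0.079 and 0.15 in STBB OVX. The sham pools straddled all others: pools 1 and 2 were the lowest of the 12 arrays and pool 3 the highest. The log2 fold change in OVX against sham was 0.030 (SE 0.17, 95% confidence interval -0.35 to 0.41, limma adjusted p = 0.897). Against sham it was -0.023 (adjusted p = 0.922) in LTBB OVX and 0.15 (adjusted p = 0.495) in STBB OVX. The within-group SD, 0.252, was larger than that of 95.7% of genes, where the median gene had 0.113, and the interval stops far short of the fall of Trim63. Without sham pool 3 the difference in STBB OVX against sham was 0.39 and passed (adjusted p = 0.0117).

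Mstn, which in adult animals is made mainly by skeletal muscle, was slightly lower. Its pools read -0.015, 0.34 and 0.42 in sham, 0.15, -0.23 and -0.10 in OVX, 0.0066, 0.037 and 0.043 in LTBB OVX, and -0.075, -0.0066 and -0.023 in STBB OVX. Sham pools 2 and 3 were above all others, while sham pool 1 lay among the pools of OVX rats, so the groups overlapped. The log2 fold change was -0.31 in OVX against sham (SE 0.11, 95% confidence interval -0.56 to -0.069, limma adjusted p = 0.0294). It was -0.22 (SE 0.11, adjusted p = 0.112) in LTBB OVX and -0.28 (SE 0.11, adjusted p = 0.0454) in STBB OVX. The calls lay near the threshold, and leaving out 1 pool could end them. In OVX the call was lost without pool 2 (-0.27) or 3 (-0.23) of sham and without pool 2 (-0.23) or 3 (-0.29) of OVX, with adjusted p from 0.0818 to 0.124, and after quantile normalization (-0.29, adjusted p = 0.167). In STBB OVX it was lost without any of 9 pools, all but sham pool 1, OVX pool 1 and OVX pool 2, and with sham pool 1 left out Mstn passed in LTBB OVX as well (-0.35, adjusted p = 0.0078). OVX pool 3 and the LTBB OVX pools are not part of STBB OVX against sham. Without any of these the difference stayed at -0.28, with limma adjusted p from 0.0569 to 0.0583.

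Foxo1 and Foxo3, the transcription factors above the ligases, moved little. Foxo1 read 0.058, 0.036 and 0.054 in sham, 0.056, -0.13 and 0.11 in OVX, 0.045, -0.037 and 0.0028 in LTBB OVX, and -0.081, -0.015 and -0.041 in STBB OVX. The sham and OVX pools overlapped, and the STBB OVX pools all lay below the sham pools. Its log2 fold change was -0.036 in OVX against sham (SE 0.069, 95% confidence interval -0.19 to 0.11, limma adjusted p = 0.682), -0.046 in LTBB OVX (adjusted p = 0.602) and -0.095 in STBB OVX (adjusted p = 0.265). With a within-group SD of 0.0694, smaller than in most genes, these intervals are narrow. Foxo1 is a mean of 3 probe sets, and averaging tends to lower the SD: the single probe sets had an SE of 0.097 to 0.128. Foxo3 read 0.36, 0.52 and 0.45 in sham, 0.017, -0.029 and 0.0090 in OVX, -0.0017, -0.12 and -0.060 in LTBB OVX, and -0.083, 0.034 and -0.040 in STBB OVX. Every sham pool was above every other pool. The log2 fold change of Foxo3 was -0.44 in OVX against sham (SE 0.065, 95% confidence interval -0.58 to -0.30, limma adjusted p = 5.75e-05), -0.50 in LTBB OVX (adjusted p = 1.9e-05) and -0.47 in STBB OVX (adjusted p = 3.31e-05). After quantile normalization it was -0.20 in OVX (adjusted p = 0.149) and the call was lost, there and in STBB OVX, while in LTBB OVX it passed (-0.29, adjusted p = 0.0386).

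The 3 probe sets of Foxo3 disagreed. In the fit of single probe sets, where 23.9% were lower and 25.9% higher in OVX against sham, 1 of the 3 fell: 1376593_at changed by -1.08 (SE 0.073, limma adjusted p = 2.1e-08). Its sham pools read 1.14, 1.09 and 0.95, and the other 9 pools lay between -0.075 and 0.012. The other two had -0.17 (1376210_at, SE 0.11, adjusted p = 0.231) and -0.071 (1376229_at, SE 0.093, adjusted p = 0.57). The call of the gene in OVX against sham therefore rested on 1376593_at, and with 1376210_at alone as the value of the gene it was lost (-0.17, adjusted p = 0.214). In the comparisons of LTBB OVX and STBB OVX with sham, 1376210_at also passed (-0.33, adjusted p = 0.0253, and -0.30, adjusted p = 0.0429). The 3 probe sets of Foxo1 had -0.19 (1375688_at, adjusted p = 0.125), -0.083 (1376779_at, adjusted p = 0.519) and 0.17 (1377502_at, adjusted p = 0.311) in OVX against sham. They did not share a sign, and none passed. The sham pools of 1375688_at, at 0.034 to 0.19, lay above the other 9 pools, of which the highest was at 0.023. Which transcripts each probe set reads was not tested.

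**Figure D2:**
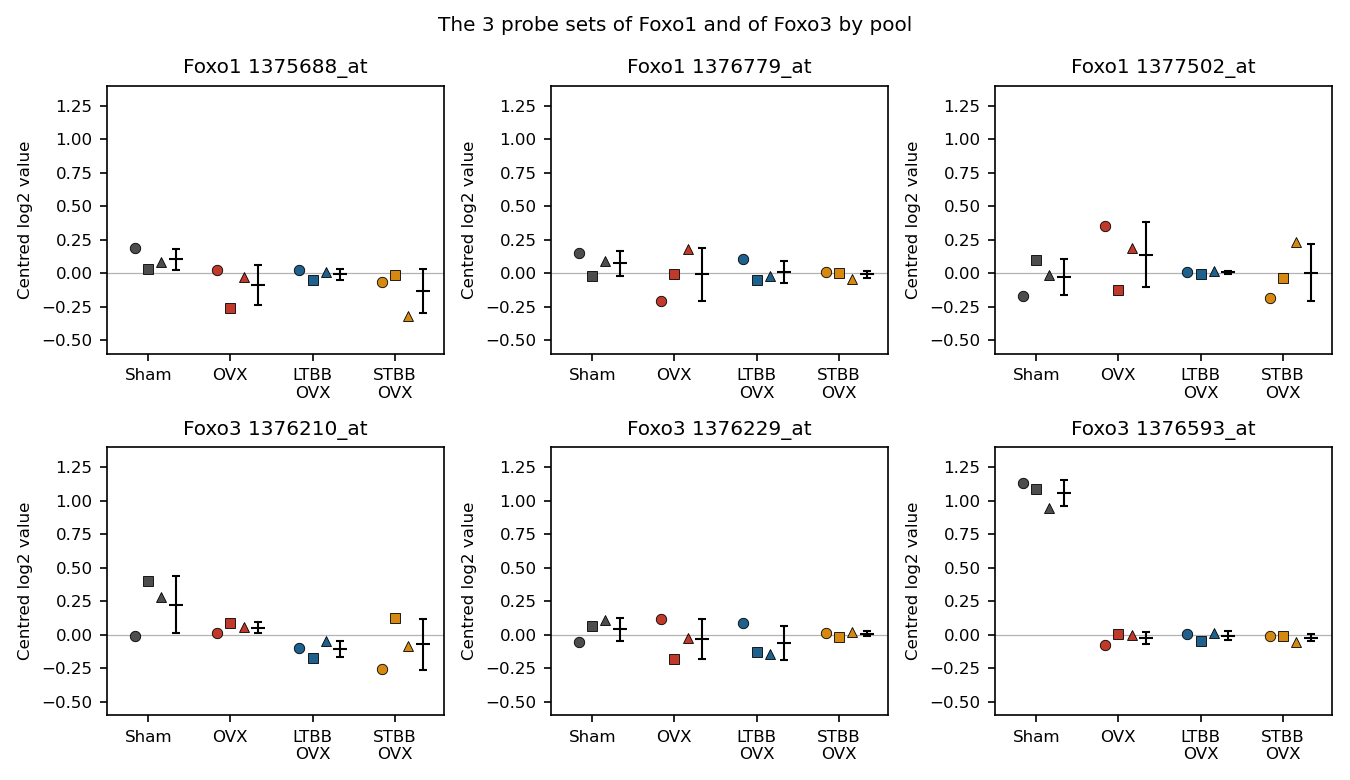
Centred log2 values of the 3 probe sets of Foxo1 (upper row) and of Foxo3 (lower row) by group, on 1 scale. Pools 1, 2 and 3 are drawn as circle, square and triangle, with the mean ± SD (n = 3); the sham pools of 1376593_at, at 0.95 to 1.14, have the widest gap to the other pools, whose highest value is 0.012.

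With LTBB OVX in place of OVX, 2 of the 5 genes were lower than in sham, Trim63 and Foxo3, and none was higher, where 29.1% of all genes were lower and 29.2% higher. With STBB OVX 3 were lower, Trim63, Foxo3 and Mstn, and none was higher, where 29% of genes were lower and 29.3% higher. The 3 comparisons share the sham arrays. With shares this high over all genes, 2 or 3 of 5 is not a result about the genes as a set.

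**Figure D3:**
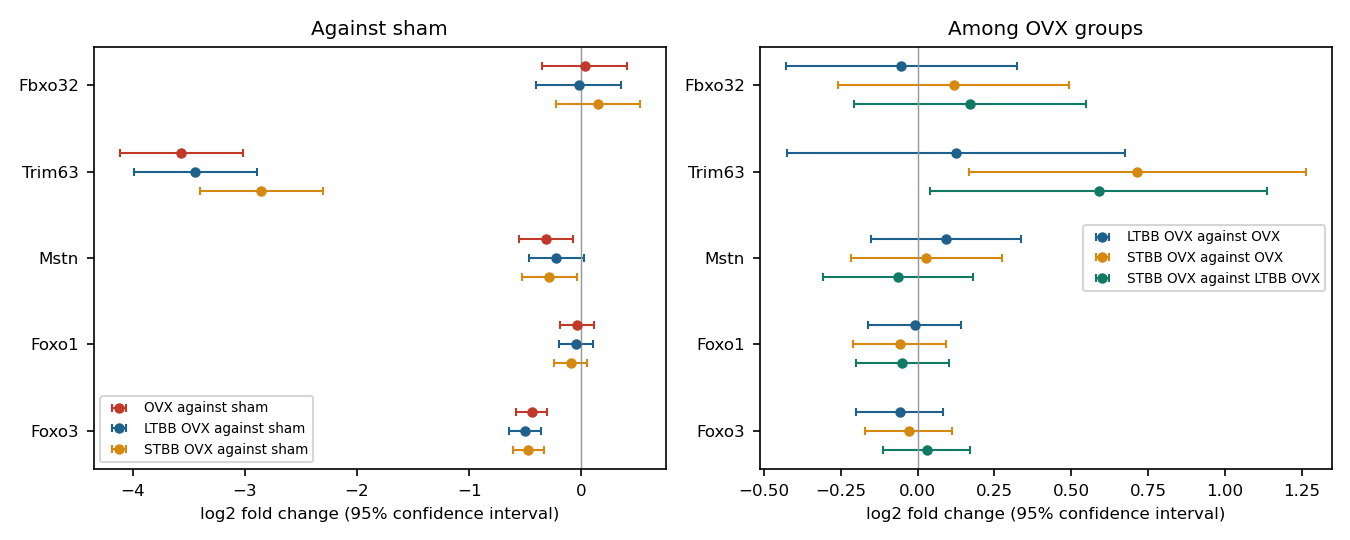
Log2 fold changes of the 5 genes with 95% confidence intervals from limma, on the left for OVX, LTBB OVX and STBB OVX against sham and on the right for the comparisons among the OVX groups, on another scale. On the left the intervals of Trim63 lie between -4.12 and -2.30, and on the right the intervals of Trim63 alone leave out 0, for STBB OVX against OVX (0.17 to 1.26) and against LTBB OVX (0.041 to 1.14).

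Set beside the structural genes within each array, the 5 genes separated into Trim63 and the rest. The muscle structural score was taken off each gene in its own array. For Fbxo32 the remainder was -3.28, -3.48 and -3.27 in the sham pools and 1.44, 0.65 and 1.19 in OVX. That is a difference of 4.44 between the group means. The differences of Foxo1 (4.37), Mstn (4.10) and Foxo3 (3.97) were alike. For Trim63 the remainder was -0.38, -0.43 and -0.019 in sham and 0.62, 0.24 and 0.83 in OVX, a difference of 0.84. For each of the 5 genes the sham and OVX remainders did not overlap (exact permutation p = 0.1, the smallest that 3 against 3 allow). The score taken off was itself 3.05 to 3.73 in sham and -1.38 to -0.72 in OVX. A gene that did not change is therefore separated by the subtraction alone. Fbxo32 overlapped before it (exact permutation p = 0.9), so this separation is not a result about the genes. In a limma fit of the remainders 4 of the 5 genes, all but Trim63, had fallen less than the structural mean and none more, where 99.2% of all genes had fallen less and 0.246% more. Those shares leave nothing particular in the 4 genes. The difference of Trim63 was called in addition with 1 probe set per gene (0.99), with array weights (1.04) and with sham and OVX alone. It was also called without pool 2 or pool 3 of LTBB OVX (0.84 each), which are not part of OVX against sham. In the main fit of the remainders all 5 genes had the same SE, 0.4747, so the calls carry no scatter of Trim63 alone. These calls cannot decide whether Trim63 fell less than the mean structural gene. Single structural genes ranged from -0.22 for Myh6, a cardiac myosin named after its value was seen, to -8.07 for Myh2, a fast myosin. The log2 fold change was -6.16 for Acta1, skeletal muscle actin, -6.38 for Myh4, a fast myosin heavy chain, -6.23 for Ttn, titin, and -5.06 for Des, desmin (limma adjusted p from 1.22e-08 to 0.000516). Of the 44 structural genes 44 were lower than Fbxo32 and than Foxo1, 42 lower than Mstn and 41 lower than Foxo3.

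**Figure D4:**
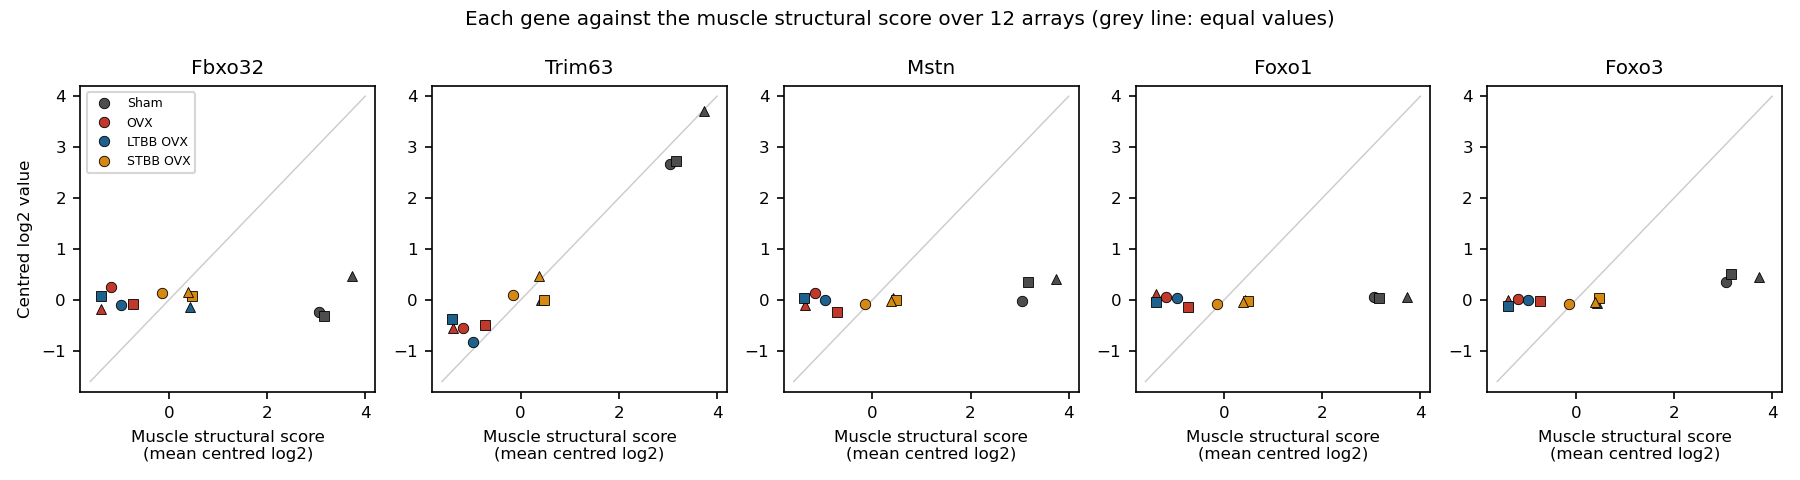
Centred log2 value of each gene (vertical axis) against the muscle structural score (horizontal axis) in the 12 arrays, coloured by group, with circles, squares and triangles for pools 1, 2 and 3 and a grey line where both are equal. Trim63 lies within 1.01 of the line in every array, while the other 4 genes stay between -0.32 and 0.52 over a range of the score from -1.39 to 3.73.

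The BB diets were compared in OVX rats, to see whether the ligases and their regulators differed with the diet. limma called 0 of the 5 genes in LTBB OVX against OVX, in STBB OVX against OVX and in STBB OVX against LTBB OVX, where 0%, 0% and 0% of all genes were called. At an unadjusted p under 0.05 there were 0, 1 and 1 of the 5 genes, and 329, 411 and 484 of all genes (2.31%, 2.89% and 3.4%). The gene was Trim63 both times. In STBB OVX against OVX its difference was 0.72 (SE 0.25, 95% confidence interval 0.17 to 1.26, limma adjusted p = 1), or 1.64-fold, and each STBB OVX pool lay above each OVX pool (exact permutation p = 0.1, the smallest possible). After quantile normalization it was 1.47 (limma adjusted p = 0.207). Against LTBB OVX it was 0.59 (95% confidence interval 0.041 to 1.14, limma adjusted p = 1), again without overlap, the nearest pools being 0.0044 and -0.0044. In LTBB OVX against OVX it was 0.13 (95% confidence interval -0.42 to 0.67, limma adjusted p = 1), and the pools overlapped. Over the structural genes the median difference from OVX was 1.10 with STBB and 0.40 with LTBB, with 44 and 39 of 44 above 0 and none past the test. Their part in the values of Trim63 was not tested.

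For the other 4 genes every limma interval lay across 0. For Fbxo32 the intervals were -0.43 to 0.32 in LTBB OVX against OVX and -0.26 to 0.49 in STBB OVX against OVX. Those of Mstn were -0.15 to 0.34 and -0.22 to 0.27. The intervals of Foxo1 (-0.16 to 0.14 and -0.21 to 0.092) and Foxo3 (-0.20 to 0.083 and -0.17 to 0.11), each a mean of 3 probe sets, were the narrowest. The LTBB OVX and STBB OVX pools of Mstn did not overlap (exact permutation p = 0.1, the smallest that 3 against 3 allow). They lay at 0.0066 to 0.043 and -0.075 to -0.0066, with a difference of -0.064 (95% confidence interval -0.31 to 0.18, limma adjusted p = 1). The LTBB OVX and STBB OVX pools of Fbxo32 met at 0.079 and otherwise lay apart, with a difference of 0.17 (95% confidence interval -0.21 to 0.55, limma adjusted p = 1). The share of all genes whose pools do not overlap was not counted, so a lack of overlap is given here as a description alone.

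Among the 9 arrays of OVX rats the structural score varied enough to ask which genes varied with it. For Trim63 Pearson's r with the score was 0.824 (exact permutation p = 0.00976, adjusted p = 0.0488 over the 5 genes) and Spearman's rho was 0.633 (exact permutation p = 0.076, adjusted p = 0.38). Without LTBB OVX pool 3 and STBB OVX pool 2, the arrays farthest from the median score, r was 0.859 (adjusted p = 0.0903), and with the group means taken off it was 0.591 (adjusted p = 0.875). Leaving out any of the 9 arrays ended the call, with r from 0.80 to 0.86. For Fbxo32 r was 0.0917 and rho 0.15, for Mstn -0.00582 and -0.05, for Foxo1 -0.367 and -0.333, and for Foxo3 0.0147 and 0.133 (exact permutation p from 0.329 to 0.988 for r and from 0.385 to 0.912 for rho). None of these 4 passed, and 9 arrays leave wide room for a relation.

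The genes most alike to each member are given as a description, by Pearson's r, over 12 arrays, where the sham arrays set most of the pattern, and over the 9 arrays of OVX rats. Trim63 was most like Trim72 (0.996), which encodes a membrane repair protein of muscle, Myf6 (0.996), a myogenic transcription factor, and Nexn (0.995), an actin-binding protein of striated muscle. Over the 9 arrays it was most like Lsmem1 (0.968), Map3k20 (0.963) and again Nexn (0.952). Its median r with the 44 structural genes was 0.95 over 12 arrays and 0.762 over 9. Foxo3 was most like Xirp1, a muscle actin-binding protein, Atp6ap1l and Metap1 (all 0.988) over 12 arrays, and Izumo4 (0.942), Pafah1b3 (0.93) and Muc2 (0.917) over 9. Its median r with the structural genes went from 0.907 to -0.014, so the likeness lay in the gap between sham and the rest. Mstn was most like Zfand5 (0.933), Timp4 (0.926) and LOC102549032 (0.925) over 12 arrays and Naglt1 (0.953), Ism2 (0.948) and Dele1 (0.947) over 9, and its median r with the structural genes was 0.671 and -0.004. Fbxo32 was most like Ttc1 (0.893), Pcsk1n (0.886) and Sobp (0.885), then Cnbd2 (0.98), Sytl3 (0.93) and Nos2 (0.92). Foxo1 was most like Parp6 (0.915), Egln2 (0.879) and Casp16 (0.864), then Egln2 (0.974), Mip (0.961) and Casp16 (0.96). Of the genes named here as most alike, only Xirp1, for Foxo3 over 12 arrays, is among the 44 structural genes.

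Other ubiquitin ligases and ligase subunits of muscle fell more often than they rose in OVX against sham. Of 23 measured (Trim55, Fbxo40 and Asb15 of the list of 26 were not analysed here) 12 fell, 6 rose and 5 did not pass, with a median log2 fold change of -0.38, against 28.6% lower, 30.3% higher and a median of 0.0047 over all genes. Klhl41, a muscle adaptor of cullin ligases, changed by -6.70 (limma adjusted p = 6.6e-08), Trim54, the relative of Trim63 known as MuRF3, by -5.49 (adjusted p = 4.2e-08), and the adaptors Asb2 and Asb5 by -3.86 and -3.78. Fbxo30, an F-box gene of muscle atrophy named after its value was seen, had -1.10 (adjusted p = 1.79e-05). Cblb, a ligase that acts on IRS1, rose by 1.33 (adjusted p = 3.1e-09), and Nedd4, Trim32 and Fbxo21 rose by 0.865, 0.71 and 0.33. Klhl41, Trim54, Asb2 and Asb5 were lower than Trim63 at -3.57, and Fbxo32 was at 0.030. After quantile normalization 9 fell and 1 rose, where 10.4% of all genes fell and 10.8% rose, and Nedd4, Trim32 and Fbxo21 lost their calls.

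Target genes and relatives of the FoxO factors fell more often than they rose in OVX against sham. Of 33 measured 21 fell, 5 rose and 7 did not pass (median -0.31), against 28.6% of all genes lower and 30.3% higher. Pdk4, a kinase that shuts off pyruvate oxidation, changed by -2.42 (limma adjusted p = 1.31e-06), Bnip3, a mitophagy receptor, by -2.07, Fkbp5, a glucocorticoid-induced chaperone, by -1.72, and Gadd45a, a stress response gene, by -1.51. Foxo4, the related factor named after its value was seen, had -0.66 (adjusted p = 4.38e-05). Ctsl, a lysosomal protease, rose by 1.32, Cdkn1a, a cell cycle inhibitor, by 1.31, Ddit4, an inhibitor of mTORC1, by 0.88 and Gabarapl1, an autophagy gene, by 0.55. Many of these genes are active well beyond muscle. After quantile normalization 7 fell and 2 rose (all genes 10.4% and 10.8%), and Ddit4 and Gabarapl1 lost their calls.

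Genes of myostatin and activin signalling rose more often than they fell in OVX against sham. Of 24 measured 18 rose, 2 fell and 4 did not pass (median 0.48), where 30.3% of all genes were higher and 28.6% lower. Bmp1, of the protease family that frees myostatin from its propeptide, rose by 2.63 (limma adjusted p = 7.41e-11), Fstl1, a follistatin-like secreted protein, by 1.95, Ltbp3, which binds latent TGF-beta, by 1.81, and Inhbb, an activin subunit, by 1.68. The receptor Acvr2b (0.49, adjusted p = 0.0039) and the myostatin inhibitor Fst (0.46, adjusted p = 0.000102), named after their values were seen, rose as well. Furin, a proprotein convertase, changed by -0.71 and Inhba, an activin subunit, by -0.33. Bone and connective tissue cells also make many of these proteins. After quantile normalization 9 rose and none fell (all genes 10.8% and 10.4%), and Furin and Inhba lost their calls.

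Upstream of FoxO, of 30 measured genes of IGF, PI3K and Akt signalling 9 fell, 9 rose and 12 did not pass (median -0.0091). These shares were near those of all genes, 28.6% lower and 30.3% higher. Igf1, the growth factor, rose by 1.55 (limma adjusted p = 3.76e-07), Inppl1, a lipid phosphatase, by 1.05, the adaptor Irs1 by 0.69 and the PI3K subunit Pik3r1 by 0.60. Prkaa2, an AMPK subunit abundant in muscle, changed by -3.65 (adjusted p = 9.97e-08), Usp7, a deubiquitinase, by -1.38, Prkaa1 by -0.55 and the acetyltransferase Ep300 by -0.51. After quantile normalization 4 fell and 2 rose (all genes 10.4% and 10.8%), and Igf1, Irs1, Pik3r1 and Prkaa1 lost their calls. In LTBB OVX and STBB OVX against OVX none of the genes of these 4 lists passed, where 0% of all genes did. The medians of the lists lay between -0.0094 and 0.027. In STBB OVX against OVX 14 of the 23 ligase genes were above 0. At an unadjusted limma p under 0.05 there were 4 of these 23, against 2.89% of all genes. Klhl41, Trim54 and Asb2 were among them, at 2.31, 1.71 and 0.81. For the FoxO, myostatin and upstream lists the counts were 0, 0 and 2. In LTBB OVX against OVX they were 0, 0, 1 and 1 for the 4 lists.

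**Figure D5:**
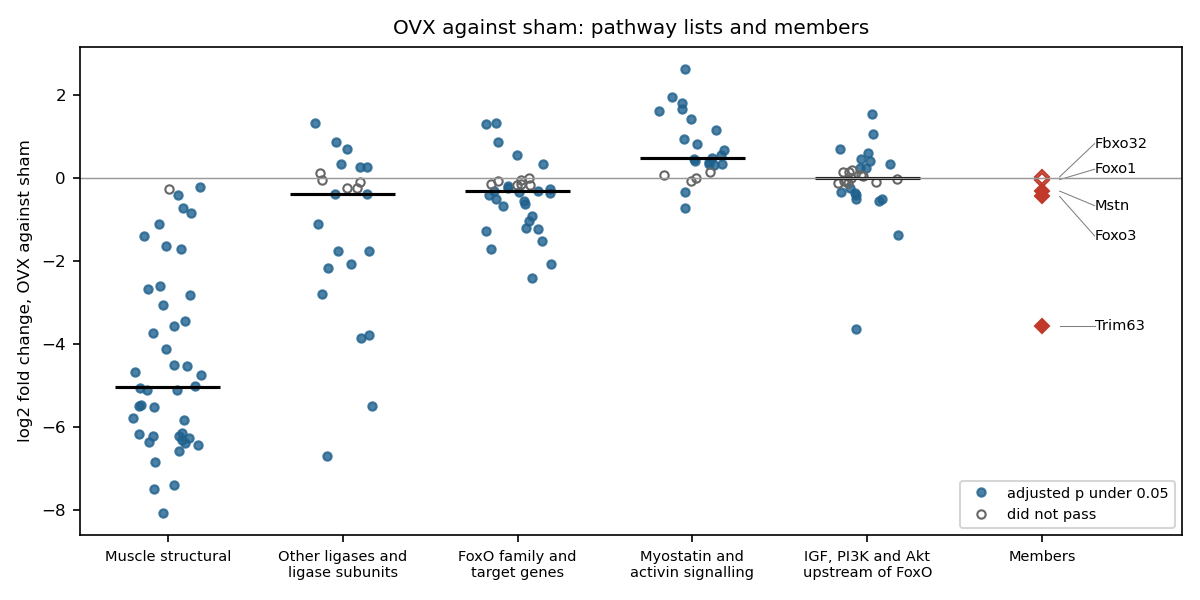
Log2 fold changes in OVX against sham for the genes of 5 lists (columns 1 to 5) and for the 5 members (right, diamonds). Each point is a gene, filled where the limma adjusted p was under 0.05 and open where it was not, and black lines are medians, from -5.03 for the structural genes to 0.48 for myostatin and activin signalling; Trim63, at -3.57, lies within the range of the structural genes, and the other members lie between -0.44 and 0.030.

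Markers of other cells of bone and marrow moved between the same groups, where 28.6% of all genes were lower and 30.3% higher in OVX against sham. Of 8 genes of satellite cells and muscle fibre nuclei 5 fell and 1 rose in OVX against sham (median -0.66), among them Myf6, Myod1 and Myog, with a score of 1.07 to 1.45 in sham and no more than 0.075 elsewhere. Osteoblast markers rose in 10 of 10 (median 2.19, score -2.35 to -2.14 in sham and -0.016 to 0.077 in the other groups), osteoclast markers in 5 of 6 (median 2.98, score -2.60 to -2.33 in sham and -0.035 to 0.15 elsewhere) and chondrocyte markers in 9 of 9 (median 5.09, score -4.65 to -4.56 in sham and -0.077 to 0.71 elsewhere). Erythroid markers fell in 7 of 8 (median -2.91, score 2.21 to 2.59 in sham and -0.30 to 0.13 elsewhere) and neutrophil markers in 6 of 6 (median -2.71, score 2.33 to 2.90 in sham and -0.36 to 0.079 elsewhere). Endothelial markers rose in 7 of 8 and fell in 1 (median 0.90, score -0.76 to -0.70 in sham and -0.023 to 0.070 elsewhere). Macrophage markers rose in 5 of 8 and fell in 1 (median 0.66, score -1.10 to -0.31 in sham and -0.12 to 0.17 elsewhere), and adipocyte markers rose in 2 of 9 and fell in 4 (median -0.29, score 0.12 to 0.46 in sham and -0.24 to 0.10 elsewhere). After quantile normalization 10.4% of all genes fell and 10.8% rose, no median of a list changed sign, and calls were lost. Rises that passed were then 10 for osteoblast, 4 for osteoclast, 6 for chondrocyte, 5 for endothelial, 2 for macrophage and 0 for adipocyte markers. Falls were 7 for erythroid, 5 for neutrophil and 4 for satellite and fibre genes, and 1 each for endothelial, macrophage and adipocyte markers. The part of all these markers in the differences of Trim63, Foxo3 and Mstn was not tested. In centred values no marker can be said to be absent, so the labelled tissue could not be checked by the presence of bone markers.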

How the data were processed

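RNA of 12 pools was measured on Affymetrix rat genome arrays. The authors deposited log2 values: the methods describe robust multiarray analysis (RMA), then a floor and a scaling in GeneSpring of arrays and of probe sets, and the processing notes name GCOS and RMA, with versions not given in the sources used here. Of 31099 probe sets 57 controls were left out. The platform annotation gives 1 symbol for 20826 of the others, several for 436 and none for 9780, and for 20758 the present symbol was looked up by gene ID in the RefSeq genes of GRCr8. No filter on dim probe sets was possible. Where several symbols were given no gene was named.

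Groups came from the sample labels. Genes, as means of their probe sets, were fitted in limma 3.58.1 (R 4.3.3) with 4 group means over 12 arrays, 6 contrasts and Benjamini-Hochberg adjustment. Relations over arrays used exact two-sided permutation over all pairings, and within groups where group means were taken off. Permutation over all pairings treats the arrays of different diet groups as exchangeable. The limma fit of values with the muscle structural score taken off gave the counts alone, since the score of an array is shared by every gene and its p-values treat genes as if they varied alone. The precision is limited by how few arrays there are. Fits were tested on simulated data in which all groups shared the same scatter and few probe sets changed. The larger scatter of sham and the large share of called genes were not simulated.

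The members, the 14 gene lists and the tests were chosen with earlier results of these data known. Named are the 5 members, up to 4 genes of a list with the largest rise and the largest fall past the threshold in OVX against sham, Acta1, Myh4, Ttn and Des, and the 3 genes most like each member. Alternatives were another normalization, shift or weight of arrays, the value of a gene, the groups in the fit, the thresholds, a replicate block, robust variances and each array left out. The 9 arrays of OVX rats alone, each probe set alone and the median of the muscle list were added after seeing the data. Python 3.11.15 with matplotlib 3.10.9 served for the figures.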

Additional observations from a re-analysis of the deposited data

How the results depend on the processing

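With quantile normalization of the arrays again 1 of the 5 genes was lower in OVX against sham and 0 in STBB OVX against sham, and with a fold of at least 1.5 there was 1 in each of the 3 comparisons with sham (Trim63). That normalization gives every array the same spread, where the deposited SD was 0.781 to 0.824 in sham arrays and 0.136 to 0.194 in the others. By construction it narrows the sham values and widens the others. Over all genes the shares lower and higher in OVX against sham went from 28.6% and 30.3% to 10.4% and 10.8%. A call lost there cannot decide whether a gene differed, and the lost calls were not tested further. Leaving out each array in turn gave 2 to 3 genes lower in each comparison with sham, 0 to 1 higher in STBB OVX (Fbxo32, without sham pool 3) and 4 to 5 that fell less than the muscle structural genes. The relation of Mstn to the muscle structural score turned to 0.23 after quantile normalization and to 0.008 after a shift of each array to a median of 0. That of Fbxo32 turned to -0.35 with group means off, and that of Foxo3 to -0.20 without the 2 farthest arrays. That of Trim63 lost its call with group means off (0.59) and without the 2 farthest arrays (0.86). With each array left out r ranged from 0.80 to 0.86 for Trim63, -0.15 to 0.37 for Fbxo32, -0.14 to 0.24 for Mstn, -0.55 to -0.15 for Foxo1 and -0.37 to 0.16 for Foxo3; the causes were not tested.

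Of 18 pairs of pools with the same number, 2 had deviations from their group means correlated above 0.1 (range -0.279 to 0.158). With 3 pools in a group and no comparison with pools of other numbers, this cannot decide whether the pool numbers pair the samples. With a replicate block of pool number 3, 2 and 2 genes were lower in OVX, LTBB OVX and STBB OVX against sham and none higher; Mstn lost its call in STBB OVX, and Trim63 kept -3.57 (limma adjusted p = 2.17e-08) in OVX. The direction of Trim63 and Foxo3 in OVX against sham held in every alternative. Signal over background could not be read from centred values, so how far dim probe sets limit Fbxo32 and Mstn is not known here.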
